A study of Homo sapiens and Mus musculus with 24 samples.

Results

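The genes switched on in DNMT3A knockout Caco-2 cells were chosen by their CPM, the count of a gene divided by the total count of its library and multiplied by 1000000. A gene had to have a mean of at least 1 CPM over the 4 ΔDNMT3A libraries and at least 8 times the mean of the 4 WT libraries. PKIB and MMP1 also met the rule and were set aside, which left 43 of 58051 human gene identifiers, of which 13658 reached 1 CPM in ΔDNMT3A. The genes were thus selected on their levels in WT and ΔDNMT3A, which are given as a description without a test. Caco-2 is a human colorectal adenocarcinoma line that forms an enterocyte-like layer. WT cells were compared with ΔDNMT3A cells, in which a CRISPR/Cas9 cut had been directed at both isoforms of DNMT3A. The 2 remaining lines were ΔDNMT3A cells into which the long isoform (DNMT3A1) or the short isoform (DNMT3A2) had been put back as a TY1-tagged piggyBac transgene under a CMV promoter with puromycin selection. The knockout and the isoform lines were each grown from single cells by serial dilution, so a difference between lines and a difference between clones cannot be told apart. No replicate label says that the libraries of a line came from separate cultures, and p-values measure the spread between these libraries, which may be technical. The count tables held 4 WT, 4 ΔDNMT3A, 3 DNMT3A1 and 4 DNMT3A2 libraries, and 8 libraries of purified colonic epithelial cells from untreated mice. These came from 4 Dnmt3a fl/fl mice and 4 Dnmt3a ΔIEC mice, in which Villin-driven Cre removes the floxed exons in intestinal epithelium. The labels give no age for the mice.

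DNMT3A and its relatives write methyl groups on cytosines that are followed by guanine, called CG pairs here. Methylated CG pairs in a promoter commonly go with a silent gene, and germline genes are the textbook case. CG-rich promoters usually stay free of methylation in normal tissue, whereas CG-poor promoters of tissue-restricted genes are often methylated where the gene is silent. The long isoform of DNMT3A carries an N-terminal stretch that the short isoform lacks. In the intestine, DNA methylation is known to take part in the passage from crypt stem cell to mature enterocyte. Methylation itself is not part of these data, which are RNA counts.

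The libraries held 22104408 to 42161299 counted reads in Caco-2 and 16943626 to 24921248 in mouse epithelium. DNMT3A itself averaged 66.5 ± 2.25 CPM over the WT libraries (mean ± SD, n = 4) and 20.5 ± 1.22 after knockout (n = 4). The DNMT3A1 line had 38.2 ± 1.38 CPM (n = 3), the DNMT3A2 line 21.4 ± 1.42 (n = 4). The transcript was higher in DNMT3A1 than in ΔDNMT3A by 0.87 on the log2 scale (SE 0.052, edgeR adjusted p = 1.91e-11). In the libraries labelled DNMT3A2 it differed from ΔDNMT3A by 0.07 (SE 0.057, edgeR adjusted p = 0.272), so the RNA level gives no check of the short isoform in that line. At the protein level, the paper reports that immunoblots showed each isoform re-expressed and that staining found both in the nuclei. Markers of intestinal epithelium summed to 9164 to 13668 CPM in all 15 libraries, with the lowest sums in DNMT3A2 (9164 to 9305) and the highest in ΔDNMT3A (13248 to 13668). Of 11 leukocyte markers, 7 or 8 stayed below 1 CPM in every library of a group, and MS4A1 and TYROBP had no read in any group. Of 10 fibroblast markers, 6 stayed below 1 CPM in every library of each group, and of 8 endothelial markers 5 or 6 did. The other markers of these lists reached 1 CPM in at least 1 library of the group. Leukocyte markers summed to between 18.548 CPM (lowest, in DNMT3A2) and 44.974 CPM (highest, in WT). Fibroblast markers summed to between 156.38 CPM (ΔDNMT3A) and 217.75 CPM (WT), and endothelial markers to between 4.8407 CPM (DNMT3A2) and 13.612 CPM (DNMT3A1).

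Most of the 43 genes were weakly transcribed, with 28 below 10 CPM in ΔDNMT3A, and 14 were already at 1 CPM or more in WT. They comprised 33 protein-coding genes, 8 long non-coding RNAs, 1 small structural RNA copy (RN7SL5P) and 1 pseudogene (DPPA3P2). Among the 42 genes with more than 3 reads in a WT library, ΔDNMT3A means were 8.29 to 52.9 times the WT means (median 12.4). The remaining gene, ZBED2, had 0, 0, 0 and 1 reads in WT and 57 to 70 reads in the ΔDNMT3A libraries, and no fold is given for it. All libraries of ΔDNMT3A lay above all WT libraries for 42 of the 43, where 23.7% of all genes tested in this contrast did so. All 43 also passed the test of that contrast, which called 31.2% of all genes higher. Since the contrast chose the genes, nothing is read from either count. The exception to the clean separation was RN7SL5P, at 1.68, 98.1, 3.11 and 78.1 CPM in the 4 ΔDNMT3A libraries against 1.75 to 3.58 in WT. RN7SL5P is a copy of the 7SL RNA of the signal recognition particle, and its reads cannot be assigned with certainty among the near-identical copies of that family.

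The edges of the rule were not sharp. The genes just inside the fold bar were BCL2L15 at 8.29 times WT, LINC02732 at 8.39 and CEACAM6 at 8.49. Just outside were PPP2R2B at 7.98, WIPF3 at 7.95 and ENSG00000253929 at 7.88 times WT. Just above 1 CPM in ΔDNMT3A were DPPA3P2 at 1.02, IGF2BP2-AS1 at 1.09 and CTNNA3 at 1.09 CPM, and just below were NDP at 0.998, LINC02015 at 0.986 and SAMD9L at 0.983 CPM.

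**Figure D1:**
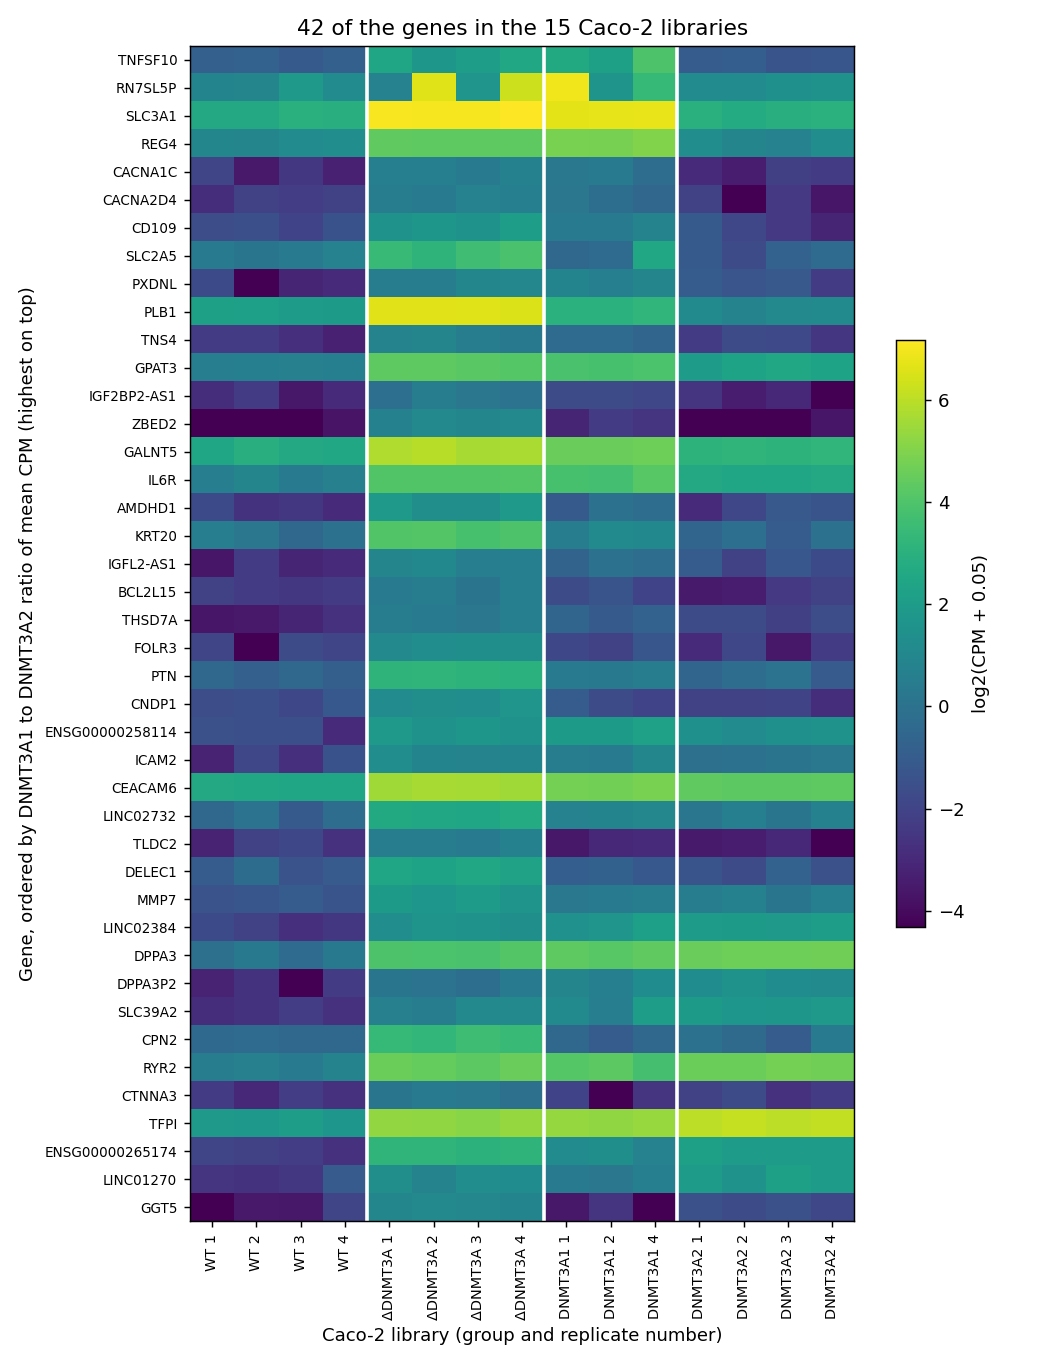
Each row is 1 of 42 of the genes and each column 1 Caco-2 library, with colour for log2(CPM + 0.05). Rows are ordered by the DNMT3A1 to DNMT3A2 ratio of mean CPM. The DNMT3A1 columns stay bright in the upper rows where the DNMT3A2 columns return to the colour of WT, RN7SL5P is split within groups, and the lower rows hold genes that are as bright or brighter in DNMT3A2.

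PLB1, the brush-border phospholipase B1 of the small intestine, was high in ΔDNMT3A and low in both isoform lines. Its gene spans chr2:28457145-28643788 on the plus strand of GRCh38. PLB1 lay at 4.53, 4.46, 3.88 and 3.84 CPM in WT and at 101.6, 101.2, 97.6 and 94.3 CPM in ΔDNMT3A. It was at 8.02, 8.02 and 9.37 CPM in DNMT3A1 and at 2.13, 1.72, 2.05 and 2.16 CPM in DNMT3A2. None of the 4 groups overlapped, and DNMT3A2 was the lowest, below WT. DNMT3A1 exceeded DNMT3A2 by 2.03 on the log2 scale (SE 0.112, edgeR adjusted p = 1.68e-14).

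AMDHD1, an enzyme of histidine breakdown (chr12:95943293-95968716, plus strand), followed a similar course at a lower level. It had 0.245, 0.113, 0.131 and 0.0794 CPM in WT and 3.51, 2.49, 2.54 and 3.67 in ΔDNMT3A. DNMT3A1 held 0.427, 0.964 and 0.821 CPM, and DNMT3A2 held 0.0774, 0.226, 0.418 and 0.345. The 2 isoform lines came close to each other without overlap. AMDHD1 passed the filter on low counts through its DNMT3A1 reads alone, which favours a higher level there (fitted log2 difference 1.36, SE 0.382). CNDP1, the secreted carnosinase, which cleaves the histidine dipeptide carnosine, was the other member among 24 genes listed for histidine, folate and one-carbon metabolism. It rose from 0.301 ± 0.070 to 2.60 ± 0.38 CPM in the values that chose it and lay at 0.198 to 0.460 in DNMT3A1 and 0.0940 to 0.209 in DNMT3A2. Without these members, 18 genes of that list could be tested in ΔDNMT3A against WT, of which 7 were higher and 10 lower, where 31.2% of all genes were higher and 31% lower.

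GGT5, which cleaves glutathione conjugates such as leukotriene C4 (chr22:24219654-24245142, minus strand), had 0, 1, 1 and 8 reads in WT. The ΔDNMT3A libraries had 80, 70, 59 and 53 reads, which is 1.90, 2.05, 1.95 and 1.75 CPM. There were 1, 3 and 0 reads in DNMT3A1 and 8, 6, 9 and 7 in DNMT3A2. Its counts in the isoform lines were too low for the filter, and DNMT3A1 against DNMT3A2 was not tested for it. Of 16 tested genes listed for glutathione and leukotriene hydrolysis, GGT5 left out, 11 were higher and 2 lower in ΔDNMT3A than in WT, where 31.2% of all genes were higher and 31% lower. In DNMT3A1 against DNMT3A2, 5 of 15 were higher and 9 lower, where 34.5% and 33.9% of all genes were.

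**Figure D2:**
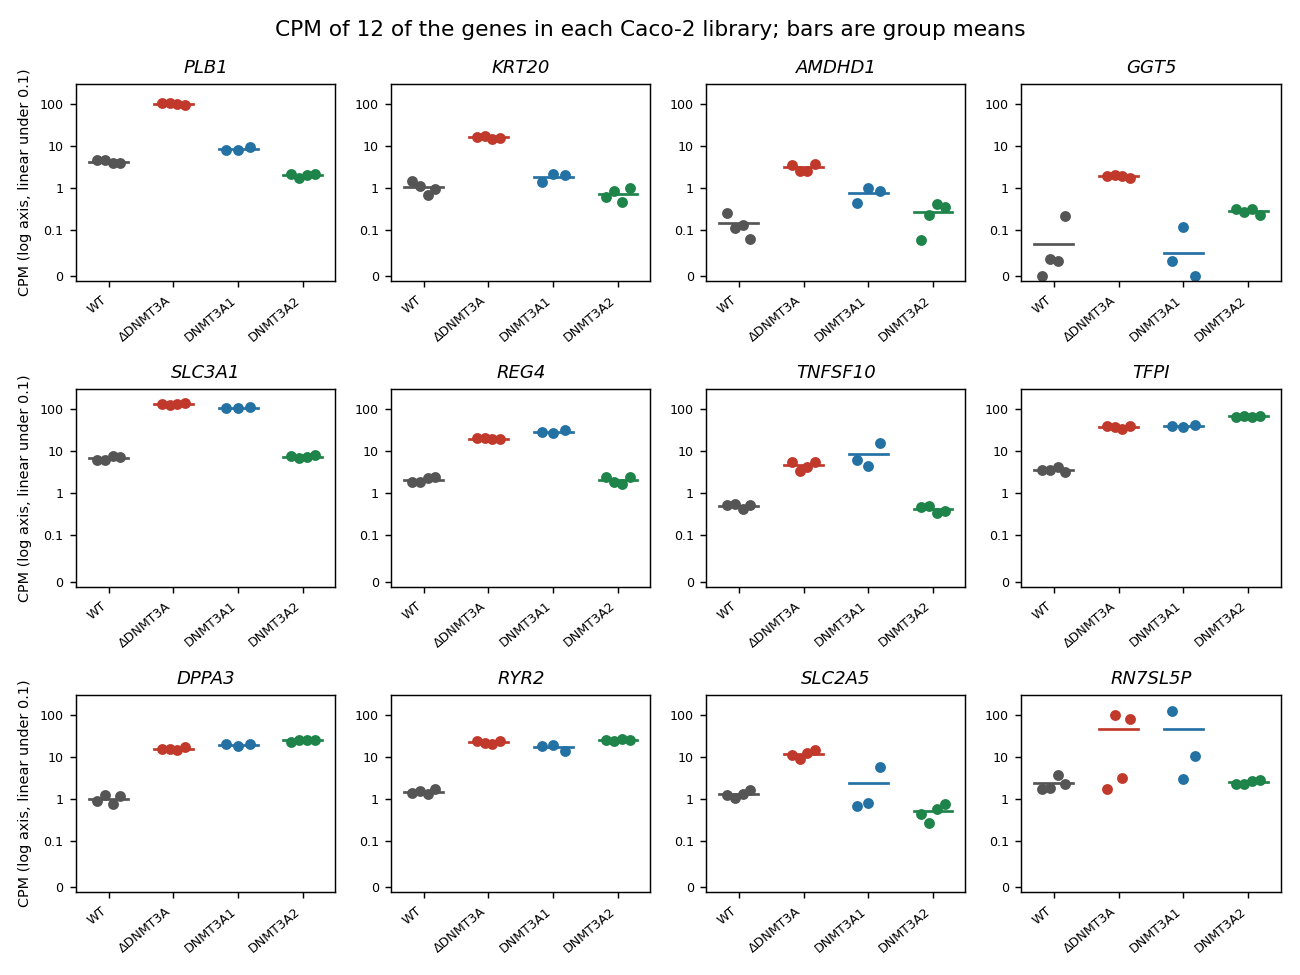
Points are the CPM of single libraries and bars are group means for 12 of the genes, on a log axis that is linear under 0.1 CPM. PLB1, KRT20 and AMDHD1 are lower in both isoform lines than in ΔDNMT3A, SLC3A1, REG4 and TNFSF10 stay high in DNMT3A1 alone, TFPI, DPPA3 and RYR2 stay high in both, 1 of the 3 DNMT3A1 libraries stands apart for SLC2A5 at 5.74 CPM, and RN7SL5P is high in 2 of 4 ΔDNMT3A libraries and 1 of 3 DNMT3A1 libraries.

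The comparison of DNMT3A1 with DNMT3A2 used no library of the rule, and it asked whether these genes stood at different levels in the 2 isoform lines. Of the 43 genes, 35 passed the filter on low counts, 23 were higher in DNMT3A1 and 5 were lower (edgeR's quasi-likelihood test, adjusted p under 0.05 over all genes tested). That is 65.7% and 14.3% of those tested, beside 34.5% and 33.9% of all genes. Of the 23, however, 8 were too low in DNMT3A2 and WT for the filter in that pair: CD109, AMDHD1, IGFL2-AS1, PXDNL, TNS4, CACNA1C, CACNA2D4 and THSD7A. Apart from PXDNL (12, 8, 12 and 5 reads in DNMT3A2), they passed here through their DNMT3A1 reads alone, which favours a higher call. Of the other 27 genes, 15 were higher and 5 lower, with a median log2 difference of 0.58. With the filter removed, all 43 genes entered the test, and 25 were higher, 7 lower and 11 not called. No share above is therefore read as support for a difference between the group and other genes. With a log2 difference of at least 1 as well, 19 of the 35 were higher (54.3%, against 9.17% of all genes), and 1 was lower (2.86%, against 3.98%). The 19 were the same 8 and 11 of the other 27. The median log2 difference was 1.22 over the 35 genes and 0.003 over all genes, but 2.04 over the 8 and 0.58 over the other 27. This share and this median are not read as support either. The 23 and 5 calls stayed in number with the sequencing lane as a term in the fit, and 22 and 5 remained in count without RN7SL5P. Without DNMT3A1 replicate 4, whose values stand apart for several members, the genes lower in DNMT3A1 numbered 8 rather than 5. The 8 genes that were not tested were CNDP1, FOLR3, GGT5, ZBED2, TLDC2, BCL2L15, CTNNA3 and IGF2BP2-AS1, each low in both isoform lines. Being low in both was what kept them from the test, so the counts made with the filter do not cover all 43.

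Levels were also set against the ΔDNMT3A mean, with a gene called off at 12.5% of that mean or less and on at 50% or more. In DNMT3A1, 10 genes were off, 14 between and 19 on. In DNMT3A2, 21 were off, 13 between and 9 on. The median level was 43.6% of ΔDNMT3A in DNMT3A1 and 13.0% in DNMT3A2. With the lower bar at 25% in place of 12.5%, 17 genes were off in DNMT3A1. Both shares have the same ΔDNMT3A mean as denominator, and that mean also helped to choose the genes.

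**Figure D3:**
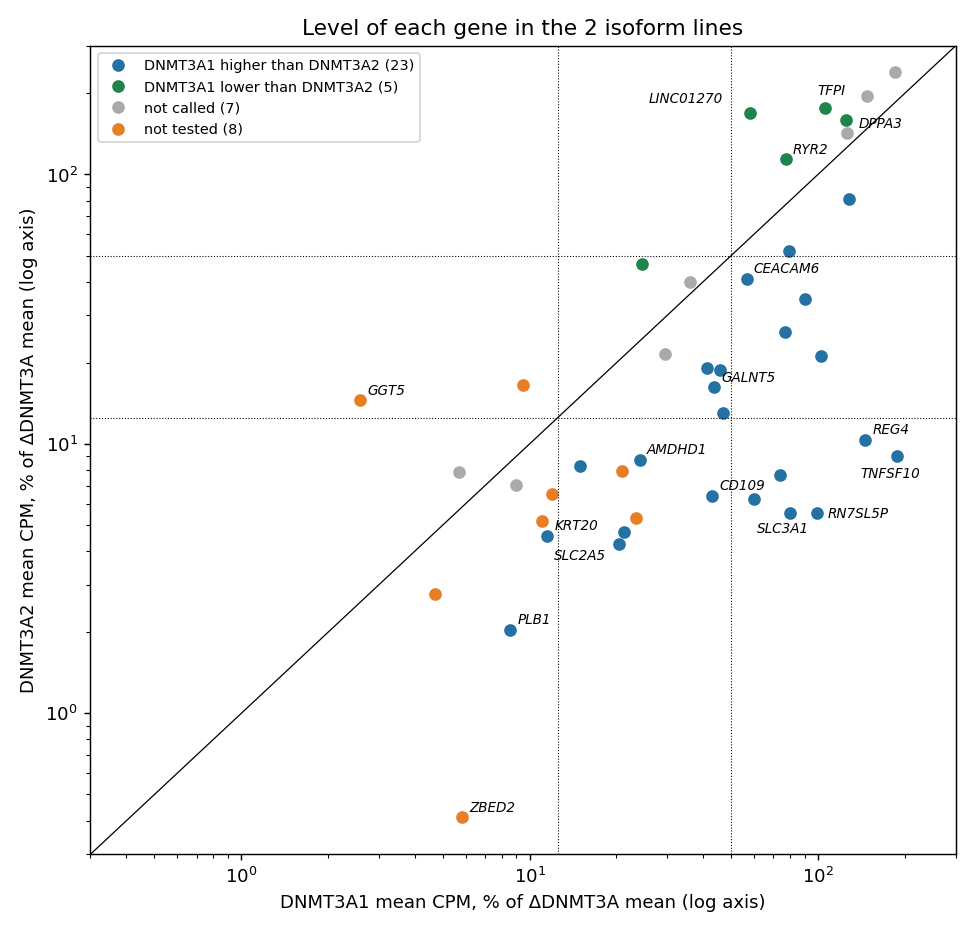
Each point is a gene, with its DNMT3A1 mean (horizontal) and its DNMT3A2 mean (vertical) as a percentage of the ΔDNMT3A mean, on log axes, coloured by the call of DNMT3A1 against DNMT3A2. Dotted lines mark 12.5% and 50%, and the diagonal marks equal levels. The 23 genes higher in DNMT3A1 lie below the diagonal, with SLC3A1, REG4, TNFSF10 and RN7SL5P farthest to the lower right, and the 5 lower genes lie above it.

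Among transporters, SLC3A1 had the highest level of all 43 genes per length of transcript after RN7SL5P was set aside, at 20.6 RPKM (CPM per kilobase of exon) in ΔDNMT3A. SLC3A1 is the heavy subunit of the cystine and basic amino acid carrier of kidney and gut (chr2:44275458-44321494). It lay at 6.09, 6.12, 7.72 and 7.22 CPM in WT and 135.3, 128.6, 130.2 and 144.1 CPM in ΔDNMT3A. DNMT3A1 kept 104.0, 105.7 and 112.3 CPM, while DNMT3A2 had 7.82, 6.74, 7.31 and 7.96, which overlapped WT. DNMT3A1 was higher than DNMT3A2 by 3.80 (SE 0.051, edgeR adjusted p = 7.31e-27). The calcium channel genes CACNA1C, a pore-forming L-type subunit, and CACNA2D4, an auxiliary subunit, were near silent in DNMT3A2. CACNA1C was at 1.18, 1.27 and 0.821 CPM in DNMT3A1 and had 2, 1, 5 and 5 reads in DNMT3A2 (0.0452 to 0.174 CPM). CACNA2D4 had 5, 0, 4 and 1 reads in DNMT3A2. Both passed the filter through DNMT3A1 alone, and with so few reads the size of their difference is uncertain (fitted log2 difference 3.09, SE 0.372, for CACNA1C and 3.14, SE 0.460, for CACNA2D4).

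SLC2A5, the fructose transporter GLUT5, had 1.23, 1.05, 1.28 and 1.64 CPM in WT, 11.1, 8.94, 12.6 and 14.6 in ΔDNMT3A, and 0.426, 0.271, 0.557 and 0.752 in DNMT3A2. In DNMT3A1 it was at 0.690 and 0.771 CPM in replicates 1 and 2 but at 5.74 in replicate 4. The log2 difference of 2.24 between DNMT3A1 and DNMT3A2 (SE 0.530, edgeR adjusted p = 0.000568) fell to 0.44 without that library (adjusted p = 0.282).

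RYR2 and SLC39A2 were the transport genes that stayed high in DNMT3A2. RYR2 encodes the calcium release channel best known from heart muscle, and SLC39A2 a zinc importer. RYR2 was at 1.28 to 1.72 CPM in WT, 19.6 to 23.7 in ΔDNMT3A, 17.8, 19.5 and 13.8 in DNMT3A1 and 24.4, 23.8, 27.0 and 25.3 in DNMT3A2. It was lower in DNMT3A1 than in DNMT3A2, with a log2 difference of -0.61 (SE 0.077, edgeR adjusted p = 1.06e-07). SLC39A2 reached 3.75, 3.21, 3.31 and 3.57 CPM in DNMT3A2, above all 4 ΔDNMT3A libraries (1.41 to 2.08), and 2.14, 1.47 and 4.27 in DNMT3A1. FOLR3, a secreted folate-binding protein, was at most 0.368 CPM in either isoform line after 2.06 to 2.58 in ΔDNMT3A.

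Of 7 metabolic enzymes, also grouped after the members were known, 5 were higher in DNMT3A1 than in DNMT3A2 (34.5% of all genes) and 2, CNDP1 and GGT5, were not tested. AMDHD1, among the 5, had passed the filter through DNMT3A1 alone, with 2, 5, 12 and 11 reads in DNMT3A2. GALNT5, which starts mucin-type O-glycans, was at 55.0 ± 4.57 CPM in ΔDNMT3A, at 23.4, 23.5 and 25.02 in DNMT3A1 and at 8.71, 9.09, 8.56 and 9.34 in DNMT3A2 (log2 difference 1.39, SE 0.063, edgeR adjusted p = 2.35e-16). GPAT3, which takes the first step of glycerolipid synthesis, kept 14.6, 14.2 and 15.2 CPM in DNMT3A1 against 17.6 to 20.1 in ΔDNMT3A, and 4.06 to 5.67 in DNMT3A2 (log2 difference 1.52, SE 0.085). The isoform lines did not overlap for either gene.

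The 5 surface receptors and ligands, a group put together after the members were known, were all called higher in DNMT3A1 than in DNMT3A2, beside 34.5% of all genes, and 1 of them, CD109, had passed the filter through DNMT3A1 alone. TNFSF10, which encodes the death ligand TRAIL, differed by 4.41 (SE 0.388, edgeR adjusted p = 1.78e-10). It was at 0.427 to 0.563 CPM in WT, 5.53, 3.34, 4.26 and 5.62 in ΔDNMT3A, 6.27, 4.51 and 15.6 in DNMT3A1 and 0.464, 0.498, 0.348 and 0.376 in DNMT3A2. The highest of these was again DNMT3A1 replicate 4, and without it the difference was 3.66, below that of SLC3A1. IL6R, the receptor of interleukin 6, was at 13.9, 13.2 and 18.1 CPM in DNMT3A1 and 5.38 to 6.11 in DNMT3A2, after 16.6 to 16.8 in ΔDNMT3A. CEACAM6, an adhesion molecule of colonic epithelium, was lowered only in part, to 27.0, 26.1 and 28.8 CPM in DNMT3A1 and 20.4, 19.0, 19.6 and 20.2 in DNMT3A2, from 45.7 to 50.9 in ΔDNMT3A, with WT at 5.42 to 6.09. The difference between the isoform lines was 0.43 for CEACAM6 (SE 0.053, edgeR adjusted p = 9.94e-08). CD109, a membrane protein that binds TGF-β receptors, differed by 2.76 (SE 0.348), and ICAM2, an adhesion ligand of leukocytes and endothelium, by 0.58 (SE 0.210, edgeR adjusted p = 0.0174). The call for ICAM2 was lost without DNMT3A1 replicate 4 (0.38, adjusted p = 0.184) and with DESeq2 (0.56, adjusted p = 0.106).

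Of 7 secreted or matrix proteins, 4 were higher in DNMT3A1 than in DNMT3A2 (34.5% of all genes). TFPI was lower (33.9% of all genes), and CPN2 and MMP7 did not pass the test. THSD7A, among the 4, had passed the filter through DNMT3A1 alone, and PXDNL was too low for the filter in DNMT3A2 against WT. REG4, a secreted lectin of the gut, was at 28.6, 27.8 and 31.6 CPM in DNMT3A1, above all ΔDNMT3A libraries (19.8 to 20.4), and at 2.40, 1.85, 1.64 and 2.41 in DNMT3A2, which overlapped WT (1.84 to 2.43). The 2 isoform lines differed by 3.77 (SE 0.094, edgeR adjusted p = 1.12e-21). TFPI, the inhibitor of the tissue factor pathway of clotting, went the other way. TFPI was at 40.6, 38.5 and 41.8 CPM in DNMT3A1, close to ΔDNMT3A (34.6 to 40.3), and at 64.9, 70.6, 65.4 and 69.5 in DNMT3A2, with WT at 3.23 to 4.24. The log2 difference of DNMT3A1 from DNMT3A2 was -0.78 for TFPI (SE 0.043, edgeR adjusted p = 1.64e-14). MMP7, the epithelial matrix protease matrilysin, was at 1.15 to 1.39 CPM in DNMT3A1 and 1.04 to 1.63 in DNMT3A2, between WT (0.337 to 0.460) and ΔDNMT3A (3.01 to 3.93). Its log2 difference was -0.17 (SE 0.204, edgeR adjusted p = 0.480). CPN2, a subunit of the plasma carboxypeptidase N, was at 0.463 to 0.690 CPM in DNMT3A1 and 0.452 to 1.29 in DNMT3A2, from 9.67 to 12.1 in ΔDNMT3A (log2 difference -0.51, SE 0.311, edgeR adjusted p = 0.151). PTN, the growth factor pleiotrophin, was at 8.002 to 8.998 CPM in ΔDNMT3A and at most 1.41 in either isoform line (log2 difference 0.84, SE 0.253). PXDNL, a peroxidasin-like protein, and THSD7A, a thrombospondin-repeat membrane protein, differed by 2.27 (SE 0.276) and 1.08 (SE 0.346). The call for THSD7A was lost with DESeq2 (1.07, adjusted p = 0.0836).

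KRT20, the intermediate filament protein of differentiated enterocytes, had 0.690 to 1.47 CPM in WT and 16.6, 17.1, 14.3 and 15.6 in ΔDNMT3A. It was at 1.35, 2.16 and 1.98 CPM in DNMT3A1 and 0.619, 0.860, 0.452 and 0.972 in DNMT3A2, a log2 difference of 1.29 (SE 0.243, edgeR adjusted p = 4.51e-05). TNS4, an adaptor at integrin adhesions, lies 374344 bases from KRT20 on chromosome 17. With 4, 6, 7 and 4 reads in DNMT3A2, TNS4 passed the filter through DNMT3A1 alone, which favours a higher level there (fitted log2 difference 1.82, SE 0.348). KRT20, SLC2A5 and CEACAM6 were the 3 members among 39 genes listed for enterocyte brush border and absorption. Without them, 30 genes of that list were tested in DNMT3A1 against DNMT3A2, of which 22 were higher and 4 lower (34.5% and 33.9% of all genes), with a median of 0.99. In ΔDNMT3A against WT, 16 of the 30 were higher and 4 lower (31.2% and 31% of all genes), with a median of 0.20. The 4 lower genes were SI, ENPEP, APOB and ESPN. ENPEP, a brush-border aminopeptidase, went from 1.69 CPM in WT to 0.574 in ΔDNMT3A and APOB, the lipoprotein core, from 668 to 450, while SLC5A1, the sodium-glucose carrier, was at 1.76 and 11.9 CPM and SLC15A1, the peptide carrier, at 9.11 and 28.6. The summed intestinal markers were also lowest in DNMT3A2 and highest in ΔDNMT3A, and their part in these differences was not tested. In RNA from whole cultures, fewer cells of a type and less RNA per cell cannot be told apart.

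DPPA3 (chr12:7711454-7717559), also called Stella, guards methylation patterns in oocytes and early embryos. DPPA3 was at 0.888, 1.20, 0.755 and 1.19 CPM in WT and 15.7, 14.9, 14.4 and 16.9 in ΔDNMT3A. It was at 19.7, 18.1 and 20.4 CPM in DNMT3A1 and 22.9, 24.9, 25.02 and 25.3 in DNMT3A2, so both isoform lines lay above every ΔDNMT3A library. DNMT3A1 was below DNMT3A2, with a log2 difference of -0.37 (SE 0.057, edgeR adjusted p = 2.55e-06). DPPA3P2 on chromosome 14 is a near-identical pseudogene copy at 0.826 to 1.22 CPM in ΔDNMT3A, 1.504 to 2.38 in DNMT3A1 and 2.13 to 2.94 in DNMT3A2, and reads of the 2 genes may be split between them. None of 40 listed germline and cancer-testis genes was a member, but DPPA3 was not on that list. Of the 40, 3 were expressed enough to be tested in ΔDNMT3A against WT. Of these, 2 were higher (31.2% of all genes) and 1 was lower (31%), SOHLH1, at 10.6 CPM in WT and 0.0366 in ΔDNMT3A. ZBED2, a zinc finger transcription factor, and TLDC2 were near silent outside ΔDNMT3A. ZBED2 had 2, 4 and 4 reads in DNMT3A1 and 0, 0, 0 and 1 in DNMT3A2. TLDC2 had 1, 2 and 3 reads in DNMT3A1 and 1, 1, 2 and 0 in DNMT3A2, after 37 to 57 in ΔDNMT3A.

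Of the 10 non-coding genes and pseudogenes, 3 were higher and 2 lower in DNMT3A1 than in DNMT3A2, where 34.5% and 33.9% of all genes were. Another 4 did not pass the test and 1 was not tested. Of the 3, IGFL2-AS1 had passed the filter through DNMT3A1 alone, and RN7SL5P was split within DNMT3A1 (121.9, 3.01 and 10.2 CPM). LINC01270 was at 1.28, 1.12 and 1.53 CPM in DNMT3A1, 3.87, 2.90, 4.59 and 3.95 in DNMT3A2 and 1.73 to 2.49 in ΔDNMT3A, and had the lowest DNMT3A1 to DNMT3A2 difference of the genes tested (-1.58, SE 0.169, edgeR adjusted p = 6.69e-09). ENSG00000265174, an unnamed long non-coding RNA, had the highest fold over WT among the genes with more than 3 reads in a WT library (52.9, from 0.168 to 8.89 CPM on average) and kept 1.64 to 2.58 CPM in DNMT3A1 and 3.94 to 4.57 in DNMT3A2 (log2 difference -0.99, SE 0.143). IGFL2-AS1 and ENSG00000258114 were higher in DNMT3A1 by 1.22 (SE 0.325) and 0.62 (SE 0.129), and LINC02732 had a log2 difference of 0.41 (SE 0.195, edgeR adjusted p = 0.0648). LINC02384 was at 2.76 to 4.39 CPM in DNMT3A1 and 3.55 to 4.29 in DNMT3A2, against 2.47 to 3.02 in ΔDNMT3A. DELEC1, at 4.86 to 5.85 CPM in ΔDNMT3A, was back at 0.396 to 0.540 in DNMT3A1 and 0.271 to 0.557 in DNMT3A2, both overlapping WT (0.328 to 0.788).

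Each isoform line was then set against ΔDNMT3A and against WT. These comparisons share the ΔDNMT3A or WT libraries with the rule and with each other, so a low WT or high ΔDNMT3A value that helped a gene into the group also enters them. Against ΔDNMT3A, 31 genes were lower in DNMT3A1, 6 were higher and 6 did not pass the test, where 30.3% of all genes were lower and 30.4% higher. In the libraries labelled DNMT3A2, 36 were lower and 7 higher, where 34.1% of all genes were lower and 33.8% higher. The median log2 difference from ΔDNMT3A was -1.21 in DNMT3A1 and -2.95 in DNMT3A2. All 43 genes passed the filter in both comparisons, helped by their ΔDNMT3A reads. Those near silent in an isoform line, such as GGT5 with 1, 3 and 0 reads in DNMT3A1, entered through ΔDNMT3A alone, which favours a lower call. These counts and medians are therefore not read as a difference between the group and other genes. The 6 genes higher in DNMT3A1 were REG4, DPPA3, TNFSF10, ENSG00000258114, SLC39A2 and DPPA3P2, and without DNMT3A1 replicate 4, or with DESeq2, 3 were called. The 7 genes higher in DNMT3A2 were TFPI, RYR2, DPPA3, LINC02384, LINC01270, SLC39A2 and DPPA3P2. Against WT, 33 of 35 tested genes remained higher in DNMT3A1 (32.6% of all genes), and CPN2 and DELEC1 did not pass the test. The 8 genes that were low in both WT and DNMT3A1 were kept out by the filter, so this count leaves out those that had fallen back. In DNMT3A2, 17 of 27 were higher than WT (34.3% of all genes), 7 did not pass and 3 were lower (34.4% of all genes). The filter had kept out the other 16 of the 43, low in both WT and DNMT3A2, in the same way. Among the 3 below WT were PLB1 (-0.97, SE 0.121, edgeR adjusted p = 2.7e-08) and SLC2A5 (-1.27, SE 0.250).

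The promoters of the 43 genes were looked at for a property that the rule had not used. The rule did ask for low levels in WT, and the windows set beside these were not matched for level. RefSeq promoter windows of 300 bases (250 before and 50 after the start, GRCh38.p14) were at hand for 28 of the 43 genes. The median window held 5 CG pairs, against 26 in 11506 windows of genes tested and 14 in 35116 windows of all genes in the table. Windows with 15 or more CG pairs made up 7 of 28 (25%), against 79.8% of tested genes and 48.9% of all. The lowest counts were in LINC02384 (0), ZBED2 (1), FOLR3 (2), DELEC1 (2) and KRT20 (2), and the highest in CACNA1C (54) and RYR2 (32). The 7 letters TGANTCA, the core that AP-1 factors bind, were found in 6 of 28 windows (21.4%), against 4.66% of tested genes and 7.71% of all windows. The letters TATAAA were in 5 of 28 (17.9%), against 6.01% and 11.5%, and CTTTGAT, a core of the Wnt-responsive TCF factors, was in 1 (3.57%), against 1.5% and 2.62%. All 3 were searched on both strands, and no 2 of them can be the same stretch of letters. A match describes the letters and not a site in use, and whether these windows are the starts used in Caco-2 was not tested.

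Bases before the start are shown for 3 CG-poor genes that were off (PLB1, ZBED2) or on (DPPA3) in both isoform lines, for 2 CG-rich genes (AMDHD1, CACNA1C), with each CG pair in capitals, and for MMP7, where capitals mark TGANTCA and TATAAA instead. Each is read 5′ to 3′ along the strand of the gene. Of the 250 bases before the RefSeq start, those that the count tables' annotation places in the gene's own first exon were left out, which leaves 153 for ZBED2, 212 for AMDHD1 and 244 for MMP7. The stretches of PLB1 and CACNA1C lie within the same gene outside its exons, that of ZBED2 lies in an intron of CD96 on the other strand, and those of DPPA3, AMDHD1 and MMP7 lie outside annotated genes (GENCODE release 44).
PLB1 (chr2:28495810-28496059, + strand): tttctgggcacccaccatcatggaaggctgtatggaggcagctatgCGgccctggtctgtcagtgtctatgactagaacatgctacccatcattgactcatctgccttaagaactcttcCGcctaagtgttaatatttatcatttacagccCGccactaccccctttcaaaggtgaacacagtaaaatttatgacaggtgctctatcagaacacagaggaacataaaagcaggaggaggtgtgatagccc
ZBED2 (chr3:111595444-111595596, - strand): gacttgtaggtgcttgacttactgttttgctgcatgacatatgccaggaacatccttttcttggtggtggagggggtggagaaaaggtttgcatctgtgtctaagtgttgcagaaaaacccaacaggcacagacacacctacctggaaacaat
DPPA3 (chr12:7711183-7711432, + strand): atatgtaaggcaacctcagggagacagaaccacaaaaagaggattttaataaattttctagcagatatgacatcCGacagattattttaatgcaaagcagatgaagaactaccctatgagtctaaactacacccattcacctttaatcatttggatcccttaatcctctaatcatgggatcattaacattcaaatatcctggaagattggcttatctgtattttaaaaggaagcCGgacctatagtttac
AMDHD1 (chr12:95943081-95943292, + strand): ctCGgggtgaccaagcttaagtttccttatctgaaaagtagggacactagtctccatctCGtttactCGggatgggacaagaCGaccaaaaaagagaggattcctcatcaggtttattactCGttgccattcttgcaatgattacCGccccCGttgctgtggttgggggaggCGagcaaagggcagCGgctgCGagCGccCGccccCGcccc
CACNA1C (chr12:2052737-2052986, + strand): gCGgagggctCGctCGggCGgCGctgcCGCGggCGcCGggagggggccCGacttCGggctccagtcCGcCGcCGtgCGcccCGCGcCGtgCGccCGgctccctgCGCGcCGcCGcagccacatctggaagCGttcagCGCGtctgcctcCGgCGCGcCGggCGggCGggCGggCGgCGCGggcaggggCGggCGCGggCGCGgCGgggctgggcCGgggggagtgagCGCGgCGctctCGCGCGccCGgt
MMP7 (chr11:102530754-102530997, - strand): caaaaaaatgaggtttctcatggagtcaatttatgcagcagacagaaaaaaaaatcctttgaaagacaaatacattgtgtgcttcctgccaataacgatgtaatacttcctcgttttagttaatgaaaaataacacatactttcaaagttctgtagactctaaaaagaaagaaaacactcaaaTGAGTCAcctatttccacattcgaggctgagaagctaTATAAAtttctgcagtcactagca
The printed stretch of ZBED2 holds no CG pair, that of DPPA3 holds 2 and that of PLB1 holds 3, while AMDHD1 holds 13 and CACNA1C 51. PLB1 and CACNA1C thus differed in CG content, and their ΔDNMT3A means were 23.6 and 13.6 times the WT means that helped to choose them.

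**Figure D4:**
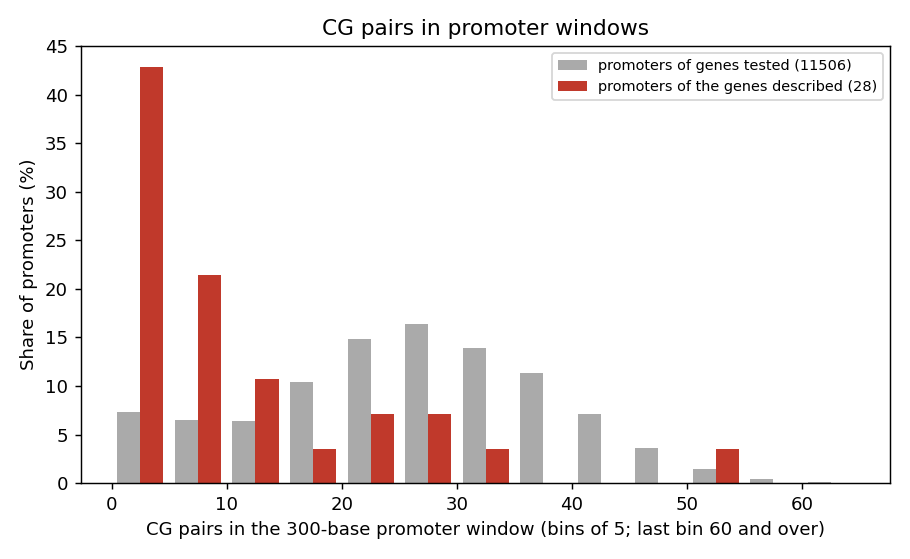
Bars give the share of promoter windows (vertical, %) with a given number of CG pairs (horizontal, bins of 5), in grey for 11506 windows of genes tested and in red for 28 windows of the genes described. The red bars pile up under 15 CG pairs, where 21 of the 28 lie, while the grey bars peak between 20 and 35.

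The 43 genes lay on 17 chromosomes. Chromosomes 1 and 12 carried 5 each and chromosomes 2 and 3 carried 4 each, which is 11.6% of the genes on chromosome 1 against 10% of 14112 expressed genes, and 11.6% against 5.51% on chromosome 12. There were 2 pairs within 1 Mb of each other, KRT20 with TNS4 and CACNA1C with CACNA2D4, which stand 51950 bases apart on chromosome 12. DCP1B, the gene tested between those channel genes, did not share their rise in ΔDNMT3A (-0.35 against WT).

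Since the knockout and isoform lines were grown from single cells, the genes around each member were examined for shifts of a whole stretch. Over the 25 tested genes on either side, the median log2 difference of ΔDNMT3A from WT was 0.05 as the median over the 43 genes. It reached 0.5 around PLB1 (1.14), SLC3A1 (0.59) and TNFSF10 (0.55), where 1.77% of all such windows did. Around PLB1, 47 of 50 neighbours were called higher in ΔDNMT3A and 46 of 50 lower in DNMT3A2 than in ΔDNMT3A, with a median of -1.05. Around SLC3A1, 41 of 50 neighbours were higher in ΔDNMT3A and 40 lower in DNMT3A2 (median -0.51), and around TNFSF10, 38 were higher and 42 lower (median -0.66). In DNMT3A1 the same neighbours stayed near ΔDNMT3A, with medians of 0.06, 0.14 and 0.06. In DNMT3A1 against DNMT3A2 the median around PLB1 was 1.11, around TNFSF10 0.79 and around SLC3A1 0.68, where 7.85% of all windows reached 0.5. PLB1's own difference of 2.03 between the isoform lines therefore stands beside a shift of 1.11 in its neighbours, and the part of such a shift in it was not tested. Of the 43 genes, 8 had neighbours that reached 0.5 in this contrast.

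**Figure D5:**
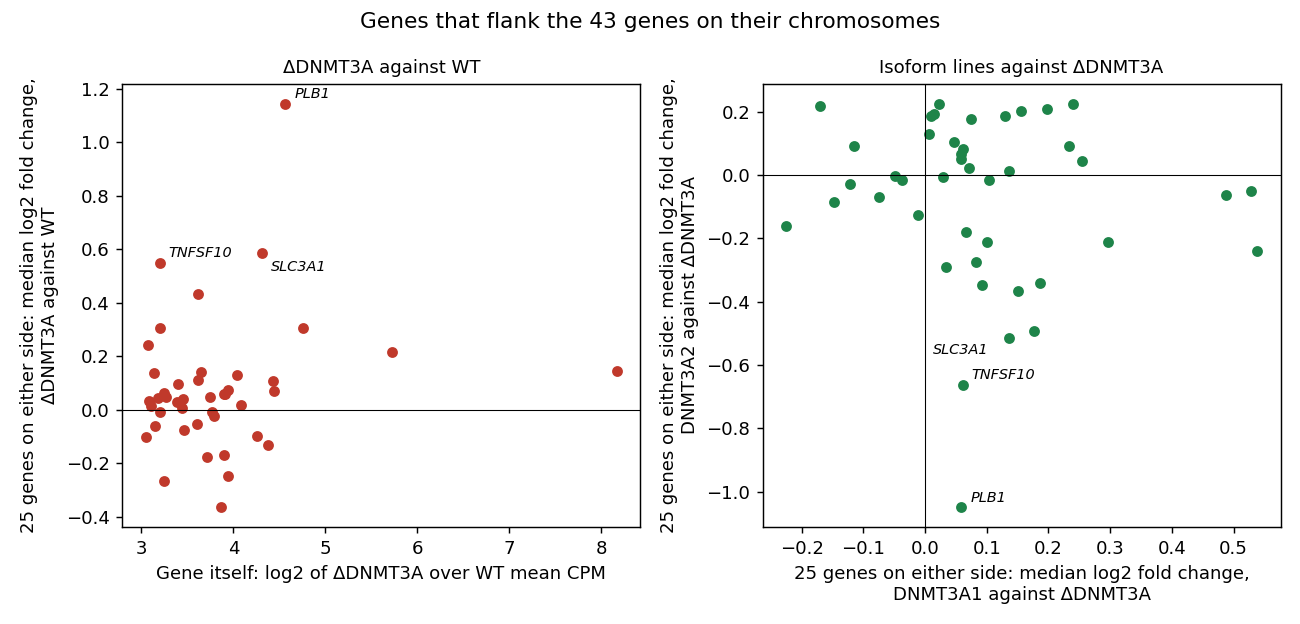
Left, each of the 43 genes is placed by its own log2 ratio of ΔDNMT3A to WT mean CPM (horizontal) and the median log2 fold change of the 25 tested genes on either side (vertical), with PLB1, SLC3A1 and TNFSF10 above 0.5. Right, the medians of the same neighbours are shown for DNMT3A1 (horizontal) and DNMT3A2 (vertical) against ΔDNMT3A, where PLB1 is lowest on the vertical axis at -1.05 and near 0 on the horizontal.

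Mouse colonic epithelium offered samples that the rule had not used. Of the 43 genes, 27 had a mouse gene of the same symbol and 17 of these were tested in Dnmt3a ΔIEC against Dnmt3a fl/fl. None passed the adjusted threshold with edgeR or with DESeq2, where 0.691% of all 14626 mouse genes did with edgeR, and an unadjusted p under 0.05 was reached by 4 of 17 with edgeR and 4 of 27 with DESeq2. Without Dnmt3a fl/fl replicate 2 or Dnmt3a ΔIEC replicate 2, 1 of 17 reached it. The share of all mouse genes under that unadjusted bar is not given here, so nothing is read from these counts. Among the 4 with edgeR, Mmp7, Tfpi and Tnfsf10 were higher in Dnmt3a ΔIEC and Cacna1c was lower (log2 difference -0.44, SE 0.159). The log2 difference was positive for 13 of 17, with a median of 0.18 against -0.004 over all genes. Mmp7 had the lowest p, at 0.246 to 0.567 CPM in Dnmt3a fl/fl and 0.413 to 1.53 in Dnmt3a ΔIEC (log2 difference 1.45, SE 0.404, edgeR adjusted p = 0.181). Plb1 was at 1.66 to 2.42 CPM in Dnmt3a fl/fl and 1.39 to 3.92 in Dnmt3a ΔIEC (log2 difference 0.30, SE 0.337). Krt20, a member gene that is low in WT Caco-2, stood at 1322 to 1719 CPM in Dnmt3a fl/fl colon and at 968 to 1837 in Dnmt3a ΔIEC, and Reg4 (78.4 to 140.0 CPM) and Slc3a1 (63.4 to 89.3 CPM) were also well expressed in Dnmt3a fl/fl epithelium. Amdhd1 and Ggt5 were at most 0.154 CPM in any mouse library and were not tested. Mouse counts were made without regard to strand, unlike those of Caco-2.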

How the data were processed

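RNA from Caco-2 lines (stranded TruSeq total RNA, 2 x 75 bases) and from mouse colonic epithelium (2 x 50 bases) had been sequenced. Per the labels and file headers, the authors trimmed reads with Trim Galore 0.4.4, aligned them with STAR 2.5.2b and deposited raw counts per gene from featureCounts, version 1.5.2 on the reverse strand in human (GRCh38) and 1.6.4 unstranded in mouse (GRCm38) per the file headers. The file of 1 listed DNMT3A1 sample was not analysed here. Coordinates are those of the count tables. The replicate libraries were not duplicates of each other.

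Levels are CPM, the count over the library total times 1000000. Each pair of groups was fitted alone with edgeR 4.0.16 in R 4.3.3 (filterByExpr, TMM, quasi-likelihood F test, two-sided, Benjamini-Hochberg over all genes tested, threshold 0.05), and log2 differences and SEs come from these fits. DESeq2 1.42.0, other normalizations, filters and bars, a lane term, a block on replicate numbers and leaving out single libraries were alternatives. Without molecular identifiers, error from PCR copies is not covered. The fits were tested on simulated data. Changes of 1 on the log2 scale were recovered at 87% to 93% in the Caco-2 comparisons simulated and at 71% in mouse. False calls made up 4.55% of calls in DNMT3A2 against ΔDNMT3A. They made up 7.43% in DNMT3A1 against DNMT3A2, 8.96% in DNMT3A1 against ΔDNMT3A and 7.57% in mouse, above the threshold of 0.05.

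The members and all lists were chosen with earlier results of these data known, and the roles by which members are grouped were assigned after the members were known. Genes named by rule were PLB1, GGT5, AMDHD1, the 10 highest in ΔDNMT3A, the 5 highest and 5 lowest tested differences between the isoform lines, the 5 with the highest share of the ΔDNMT3A level in each line, the 5 highest of those on or off in both, genes near the bars, genes in a list and close pairs. Other members named were chosen after their values were seen. The values of 1 member are not reported here. Promoters are from RefSeq (28 of 43 matched). Symbols were matched for 98.1% of human identifiers. Python 3.11.15, pandas 2.3.3, numpy 2.4.6 and matplotlib 3.10.9 were used for tables and plots.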

Additional observations from a re-analysis of the deposited data

Results flagged for a closer look

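Among the 129 sets of 4 libraries examined (43 genes in WT, ΔDNMT3A and DNMT3A2), 8 held 1 library far from the other 3, where chance gives about 1 in 20. In WT replicate 4, ENSG00000258114 was at 0.0794 CPM against 0.296 to 0.306 in the others, LINC01270 was at 0.450 against 0.113 to 0.131, and ZBED2 was at 0.0265, which is 1 read, against 0. In ΔDNMT3A replicate 1, ICAM2 was at 2.42 CPM against 1.72 to 1.79. In DNMT3A2 replicate 1, DPPA3 was at 22.9 CPM against 24.9 to 25.3 and ENSG00000265174 at 4.57 against 3.94 to 4.04. In DNMT3A2 replicate 3, THSD7A was at 0.174 CPM against 0.271 to 0.282, and in DNMT3A2 replicate 4 ZBED2 was at 0.0313, again 1 read, against 0.

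For 5 genes the isoform lines moved in opposite directions from ΔDNMT3A and also differed from each other in the edgeR test of DNMT3A1 against DNMT3A2. REG4 was 0.53 above ΔDNMT3A on the log2 scale in DNMT3A1 and -3.25 in DNMT3A2, a difference between the lines of 3.77. TNFSF10 was at 0.93 and -3.48, a difference of 4.41, and its rise in DNMT3A1 was 0.19 without DNMT3A1 replicate 4 (edgeR adjusted p = 0.352). ENSG00000258114 was at 0.34 and -0.28, a difference of 0.62, and neither of its changes from ΔDNMT3A passed with DESeq2 (adjusted p = 0.103 and 0.162). RYR2 was at -0.41 and 0.20, a difference of -0.61. LINC01270 was at -0.79 and 0.79, a difference of -1.58.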

How the results depend on the processing

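The rule gave 43 genes, 47 with TMM library sizes and 48 with DESeq2 size factors. With ΔDNMT3A at least 4 times WT there were 124, at least 16 times 11, and from 2 CPM 28. Leaving out single WT or ΔDNMT3A libraries gave 45 to 48. In DNMT3A1 against DNMT3A2, 23 genes were higher and 5 lower, against 20 and 6 with DESeq2, 23 and 7 with a replicate block and 1 lower at a log2 difference of at least 1. Over the 27 genes that also passed the filter in DNMT3A2 against WT, a choice made after seeing the data, 15 were higher and the median difference was 0.58. Leaving out single libraries gave 21 to 24 higher and 5 to 8 lower, with a median difference of 1.04 to 1.38. Against ΔDNMT3A, the 6 genes higher in DNMT3A1 were 3 with DESeq2, 0 at a log2 difference of at least 1 and 3 to 7 without single libraries, and the 7 higher in DNMT3A2 were 1 at that difference. The median difference of DNMT3A2 from ΔDNMT3A was -3.11 to -2.77 without single libraries. Against WT, 0 to 1 gene was lower in DNMT3A1 without single libraries, the 1 being SLC2A5 without DNMT3A1 replicate 4. With a bar of 25%, 17 genes were off and 7 between in DNMT3A1, and 5 were between in DNMT3A2. Of the other alternatives for these counts and medians, 274 left them within 1.5 times or within the spread between libraries.

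The main fits did not pair libraries by the replicate numbers of the labels. Deviations of same-numbered libraries correlated at -0.141 to 0.116 (median 0.032) and those of others at -0.177 to 0.111 (median -0.006). These ranges overlap and do not settle whether the numbers mark pairs. With the replicate block the counts against ΔDNMT3A and WT were as without it. In DNMT3A1 against DNMT3A2 the lower genes went from 5 to 7. Of single-gene values, 15 changed sign, 42 lost and 20 gained a call. Without single libraries, the log2 difference of DNMT3A1 from ΔDNMT3A was -0.058 to 0.123 for PXDNL and -2.702 to 0.743 for RN7SL5P. That of DNMT3A1 from WT was -0.821 to 1.43 for SLC2A5, -0.227 to 0.011 for CPN2 and -0.191 to 0.201 for DELEC1, and that of DNMT3A2 from WT was -0.065 to 0.142 for REG4. All 15 values of changed sign lay in these ranges. The causes were not tested. In mouse, 0 genes were called under each alternative run. At this depth, the 3 genes just above 1 CPM rest on 25 to 46 reads a library in ΔDNMT3A.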

Other observations

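RN7SL5P was high in ΔDNMT3A replicates 2 and 4 (98.1 and 78.1 CPM) and in DNMT3A1 replicate 1 (121.9 CPM), and at 1.68 to 10.2 CPM in the other 4 libraries of those groups. DNMT3A2 had 2.26 to 2.82 CPM. The lane split (replicates 1 and 2 against 3 and 4) did not match this division.

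DNMT3A1 replicate 4 was the highest of its group for SLC2A5 (5.74 CPM against 0.690 and 0.771), TNFSF10 (15.6 against 6.27 and 4.51) and SLC39A2 (4.27 against 2.14 and 1.47), and the lowest for RYR2 (13.8 against 17.8 and 19.5). Groups of 3 libraries were not examined for outlying libraries by a test.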
